A study of Thlaspi arvense with 6 samples.

Results

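Jasmonate genes of the pennycress (Thlaspi arvense) nectary were followed across the onset of nectar secretion, from the lipoxygenases that start the synthesis of the hormone to the receptor COI1 and the JAZ proteins that hold back its responses. Loci were taken by the description of their nearest Arabidopsis gene, with words for jasmonate, lipoxygenase, allene oxide, oxophytodienoate, coronatine or TIFY, together with the identifiers AT2G39940 (COI1) and AT2G44810 (the lipase DAD1), and without unknown proteins and AT1G19640, a methyltransferase of jasmonic acid. The pattern found 29 loci, of which the methyltransferase was left out. Another 3 of them, Ta05308, Ta09782 and Ta09742, are potassium channels whose descriptions hold the letters TIFY within the word rectifying, and they were set aside: 2 were tested, neither differed between the stages, and the values of the stages overlapped in all 3. The remaining 25 of 12335 loci are the jasmonate genes described here. They match 25 different Arabidopsis genes, and all 25 passed the filter on low values, a mean of at least 100 normalized read counts in either stage.

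RNA was sequenced from 3 samples of mature nectaries, which secrete nectar (equivalent to stages 14 to 15 of Arabidopsis flowers), and 3 samples of immature nectaries, which do not yet (stages 11 to 12). All came from untreated plants of cultivar MN108 grown under 16 h of light for about 40 days, and nectaries were dissected by hand 4 to 8 h after dawn and pooled from a different set of plants for each sample, approximately 100 per sample according to the labels. The paper of the authors gives a larger number per sample. The values are read counts per contig of the transcriptome, which the authors scaled by the upper quartile and rounded, and they were added up here for the contigs of each pennycress locus. Values below are given for replicates 1, 2 and 3 in that order, and replicates of the same number were not treated as pairs.

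Jasmonates are oxylipins made from linolenic acid of plastid membranes. In Arabidopsis, 13-lipoxygenases, allene oxide synthase and allene oxide cyclase make 12-oxo-phytodienoic acid (OPDA) in the plastid, OPDA reductase and beta-oxidation finish jasmonic acid in the peroxisome, and JAR1 joins it to isoleucine. The conjugate brings the F-box protein COI1 and a JAZ repressor together, the JAZ protein is degraded, and MYC and MYB transcription factors are released. The hormone is known in Arabidopsis for stamen elongation and pollen release, and in Brassica flowers for a part in nectar secretion.

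Totals of normalized counts were 14675385 to 22709136 in the mature and 10572166 to 14213116 in the immature samples. The gaps between low values gave approximately 11.7 to 16.3 M reads behind the mature and 12.2 to 16.9 M behind the immature samples, counting only reads in these contigs. This estimate is loosest for immature replicate 3 and mature replicate 1 (correlations of the fit 0.69 and 0.70, against 0.85 to 0.96 in the others). Ribosomal RNA held 27.5% to 62.9% of the mature and 12.6% to 42.3% of the immature totals, and mature replicate 2 had the fewest reads left outside ribosomal RNA and organelles, approximately 4.32 M. CRC, the regulator that defines Brassicaceae nectaries, stood at 28800 to 37306 normalized counts in mature and 18252 to 26192 in immature samples and was thus present in all 6. All 4 listed nectary markers had a locus, and 3 were higher and 1, MNC1, was lower in mature nectaries. Summed pollen and anther markers (5 of the 16 listed had a locus) were at 25717, 3132 and 8108 in mature against 325, 514 and 274 in immature samples. The petal and stamen genes AP3 and PI (both listed) summed to 352, 459 and 409 in mature against 1040, 1126 and 512 in immature samples, where AP3 was lower and PI did not pass the test. Phloem markers (3 of 4 listed) summed to 148, 131 and 181 against 352, 761 and 368, where SEOR1 and PP2-A1 were lower and SUC2 did not pass. The stomatal FAMA (1 of 4 listed had a locus) was lower too, at 72, 119 and 81 against 151, 175 and 140, and so was the carpel gene SHP1 (1 of 5 listed), at 756, 644 and 883 against 1444, 1125 and 1234. The part of these other tissues in the results was not tested, and in pooled tissue fewer cells of a type and less RNA per cell cannot be told apart.

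Of the 25 jasmonate genes, 13 were lower in mature nectaries, 2 were higher and 10 did not pass the test (limma on log2 of the sum plus 1, Benjamini-Hochberg adjusted p under 0.05). Over all 11780 loci tested, 35.9% were lower and 28.4% were higher, 64.3% in all. With a change of over 2-fold in addition, 9 of the 25 were lower and none was higher, against 23.0% and 13.8% of all loci. A ratio of means, mature over immature, under 0.25 was found for 7 of the 25, as for 9.95% of all loci. The mature samples all lay below the immature samples for 12 of the 25 (39.1% of all loci) and all above for 1 (30.9% of all loci), and the stages overlapped for 12. The median log2 fold change, mature over immature, was -0.57 for the jasmonate genes and -0.09 for all loci. Rescaling the samples to their totals outside ribosomal RNA and organelles moved the median of all loci by -0.15, and median-of-ratios factors moved it by 0.10. The first of these gave 15 lower and 1 higher jasmonate gene, the second 13 lower and 3 higher. The p-values rest on the spread between 3 pools within each stage, which limma draws towards a trend over all loci tested. An exact permutation test of 1 locus could not go below a two-sided p of 0.1 with these samples.

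The loci for synthesis did not move as one. Of the 7 loci for enzymes from lipoxygenase to OPDA reductase, 5 were lower in mature nectaries by 3.54-fold to 16.6-fold, and 2 did not pass the test. Over all loci tested, 35.9% were lower, and 23.0% were lower by over 2-fold. Summed over the 7 loci, 6189, 3415 and 4791 normalized counts were found in mature nectaries against 16526, 19927 and 23995 in immature nectaries, so the stages lay apart with a ratio of 4.20 between the means.

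LOX2, the plastid 13-lipoxygenase that makes most of the jasmonate of wounded Arabidopsis leaves, was at 597, 408 and 241 normalized counts in mature nectaries against 6453, 5287 and 8981 in immature nectaries (Ta09024). Every mature sample was far below every immature one, and LOX2 was lower in mature nectaries by 16.6-fold (log2 fold change -4.11, standard error 0.33, limma adjusted p = 2.62e-05). LOX3 (Ta01273), a 13-lipoxygenase needed together with LOX4 for male fertility in Arabidopsis, was at 22, 4 and 18 in mature against 146, 398 and 152 in immature nectaries. It was lower by 15.8-fold (log2 fold change -4.00, standard error 0.64, limma adjusted p = 0.000815), on approximately 24, 2 and 14 reads in the mature samples. Without immature replicate 2 the ratio of the means was 10.2 in place of 15.8. LOX4 (Ta06186) stood at 116, 86 and 131 in mature against 401, 868 and 557 in immature nectaries, and was lower by 5.48-fold (log2 fold change -2.39, standard error 0.29, limma adjusted p = 0.00018). The fourth 13-lipoxygenase, LOX6 (Ta26149), which makes jasmonate early after wounding, did not follow them. Its 736, 515 and 795 normalized counts in mature nectaries overlapped the 564, 664 and 861 in immature nectaries (log2 fold change -0.03, standard error 0.22, limma adjusted p = 0.905). LOX3 and LOX4 are close copies, so reads could have been shared between them.

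Allene oxide synthase, the next enzyme and the first committed to this branch, was at 739, 562 and 584 in mature against 414, 535 and 599 in immature nectaries (AOS, Ta27195). The stages overlapped, and the log2 fold change of 0.29 (standard error 0.18) had a limma adjusted p of 0.193. It passed the test under 2 other scalings of the samples, where its log2 fold change was 0.38 and 0.39. Of the 4 lipoxygenase loci above it in the pathway 3 were lower in mature nectaries, as were the cyclase and reductase loci below it, while AOS and LOX6 did not pass the test.

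**Figure D1:**
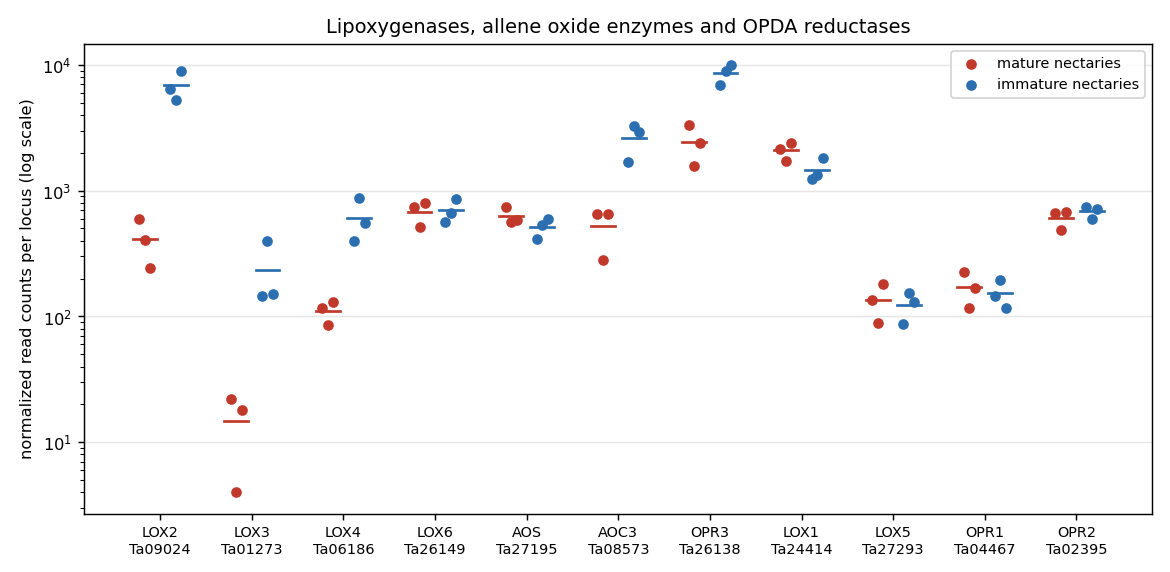
Normalized read counts (log scale) of the lipoxygenase, allene oxide and OPDA reductase loci in the 3 mature (red) and 3 immature (blue) samples. Points are samples, bars are means over 3 samples. LOX2, LOX3, LOX4, AOC3 and OPR3 show no overlap between the stages, and the stages overlap for the other 6 loci.

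The allene oxide cyclase locus Ta08573 (AOC3), whose enzyme sets the stereochemistry of OPDA, had 649, 283 and 648 normalized counts in mature nectaries and 1674, 3243 and 2947 in immature nectaries. It was lower by 4.98-fold (log2 fold change -2.35, standard error 0.37, limma adjusted p = 0.00075). The 6 contigs of the locus did not move alike, a feature singled out after their values were seen. The 2 contigs matched to AT3G25780 (AOC3) summed to 616, 273 and 594 in mature against 1103, 1923 and 1827 in immature nectaries, a ratio of 3.27. The 2 contigs matched to AT3G25760 (AOC1) were almost gone from mature nectaries, with sums of 23, 4 and 38 against 459, 907 and 951, lower by 35.6-fold. A further 2 contigs, matched to AT3G06545, which the table calls an unknown protein, were at 10, 6 and 16 against 112, 413 and 169, lower by 21.7-fold. All 3 groups were lower in mature nectaries, so the sum over the locus hides the size of the difference in its smaller contigs and not its direction. Cyclase genes are close copies of each other, and the share of reads that each contig took is uncertain.

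OPR3 (Ta26138), the peroxisomal OPDA reductase of jasmonate synthesis, whose loss makes Arabidopsis male sterile, was at 3330, 1557 and 2374 in mature against 6874, 8932 and 9898 in immature nectaries. It was lower by 3.54-fold (log2 fold change -1.87, standard error 0.29, limma adjusted p = 0.00064), and its highest mature sample lay well below its lowest immature one. Its 3 contigs were lower by 3.54-fold, 3.64-fold and 3.09-fold, close to each other.

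**Figure D2:**
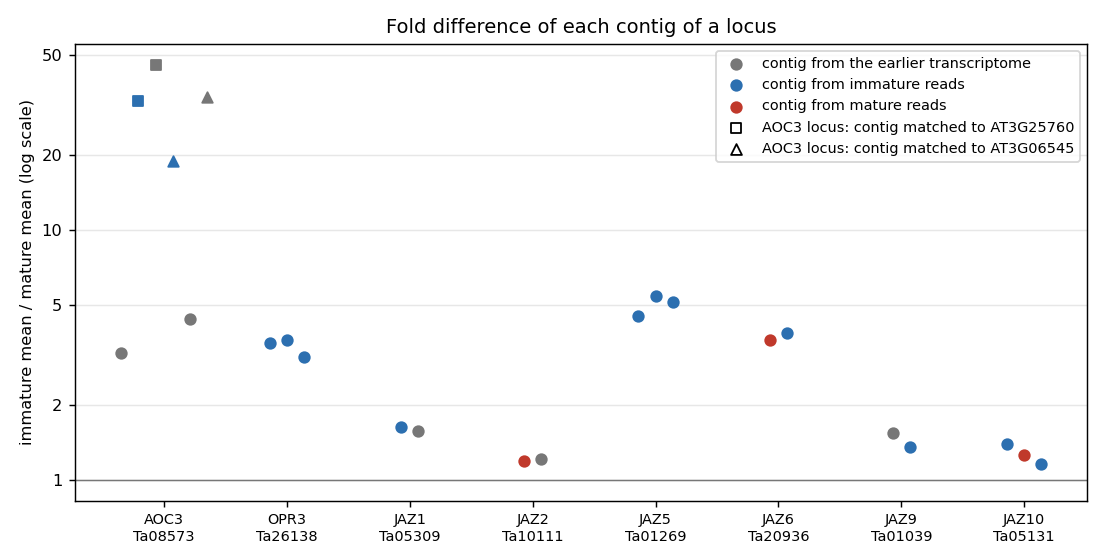
Ratio of the immature mean to the mature mean (log scale, 3 samples each) of every contig of the 8 jasmonate loci that were summed from several contigs. Colours give the assembly a contig came from, and squares and triangles mark contigs of the AOC3 locus with another Arabidopsis match. Contigs of a locus lie close together (3.09 to 3.64 for OPR3, 4.51 to 5.42 for JAZ5) except at the AOC3 locus, where they run between 3.21 and 45.7.

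Of 4 related lipoxygenase and reductase loci, listed apart from the synthesis loci, 1 was higher and none was lower, beside 28.4% and 35.9% of all loci. The stages overlapped in all 4. Of all loci, 39.1% had every mature sample below the immature ones and 30.9% had every mature sample above. LOX1 (Ta24414), a 9-lipoxygenase, which makes other oxylipins, was at 2138, 1710 and 2411 in mature against 1231, 1325 and 1823 in immature nectaries (log2 fold change 0.52, standard error 0.20, limma adjusted p = 0.0491). This call was lost under 7 of 18 alternatives, among them leaving out mature replicate 1 or 3 (adjusted p = 0.0889 and 0.160) or immature replicate 1 or 2 (adjusted p = 0.173 and 0.144). The other 9-lipoxygenase, LOX5 (Ta27293), ranged over 89 to 181 in mature and 87 to 153 in immature nectaries. The reductases OPR1 (Ta04467) and OPR2 (Ta02395), cytosolic relatives of OPR3 that are near-identical to each other, ranged over 117 to 225 and 486 to 672 in mature against 117 to 194 and 593 to 746 in immature nectaries. None of these 3 passed the test (log2 fold changes of 0.11, 0.14 and -0.18, limma adjusted p of 0.768, 0.679 and 0.384), although OPR2 did when the samples were rescaled to their totals outside ribosomal RNA and organelles.

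COI1 (Ta13700), the F-box protein that perceives jasmonoyl-isoleucine, was at 355, 282 and 364 normalized counts in mature nectaries and 290, 300 and 310 in immature nectaries. The lowest mature sample was below all immature ones and the other two were above them, and the log2 fold change of 0.14 (standard error 0.14) had a limma adjusted p of 0.402. No alternative gave COI1 a call, with log2 fold changes between -0.01 and 0.26.

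The JAZ repressors split into a strongly lower set, a slightly lower set and a single member that was higher. Over all loci tested, 35.9% were lower and 28.4% were higher. Of the 9 JAZ loci 6 were lower in mature nectaries, 1 was higher and 2 did not pass the test. Their summed counts, 13110, 9686 and 12734 in mature against 13778, 17257 and 19927 in immature nectaries, differed in the ratio of the means by only 1.43, since the loci with the most counts moved least.

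JAZ5, JAZ6 and JAZ8 made up the strongly lower set, each over 2-fold. JAZ8 (Ta18026), whose Arabidopsis protein resists jasmonate-driven degradation, was at 17, 8 and 66 in mature against 132, 273 and 131 in immature nectaries (5.89-fold lower, log2 fold change -2.93, standard error 0.68, limma adjusted p = 0.0058). JAZ5 (Ta01269) was at 254, 125 and 398 in mature against 934, 1396 and 1494 in immature nectaries (4.92-fold lower, log2 fold change -2.42, standard error 0.39, limma adjusted p = 0.00086). Its close relative JAZ6 (Ta20936) had 369, 286 and 485 against 1196, 1454 and 1575 (3.71-fold lower, log2 fold change -1.91, standard error 0.21, limma adjusted p = 0.00012). The stages lay apart for all 3, and mature replicate 2 was the lowest sample of each. The fold of JAZ8 depended on its highest mature sample, and without mature replicate 3 it was lower by 14.3-fold.

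JAZ3, JAZ1 and JAZ9 were lower by less than 2-fold. JAZ3 (Ta15996) was at 444, 323 and 473 in mature against 541, 809 and 891 in immature nectaries, without overlap (1.81-fold lower, log2 fold change -0.84, standard error 0.23, limma adjusted p = 0.0117). JAZ1 (Ta05309), the repressor by which the family was first studied, overlapped, with 775, 525 and 1213 in mature against 1086, 1520 and 1485 in immature nectaries (log2 fold change -0.77, standard error 0.29, limma adjusted p = 0.0475). JAZ9 (Ta01039) was at 3660, 2616 and 3457 against 3920, 4645 and 5908, a difference of 1.49-fold with a narrow gap between the stages (log2 fold change -0.57, standard error 0.21, limma adjusted p = 0.0432). The calls of JAZ1 and JAZ9 were lost when single samples were left out. JAZ1 no longer passed without mature replicate 1 or 2 (adjusted p = 0.0811 and 0.115) or immature replicate 2 or 3 (adjusted p = 0.125 and 0.128), nor JAZ9 without mature replicate 2 or 3 (adjusted p = 0.116 and 0.0760) or immature replicate 2 or 3 (adjusted p = 0.0936 and 0.115).

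JAZ12 (Ta03475) was the JAZ locus that was higher, with 2631, 2215 and 2247 in mature against 1811, 1635 and 1722 in immature nectaries. The stages did not overlap, and the difference was 1.37-fold (log2 fold change 0.45, standard error 0.14, limma adjusted p = 0.0208). It fell short of the threshold without mature replicate 1 (adjusted p = 0.0508) or immature replicate 1 or 2 (adjusted p = 0.0530 and 0.0907). JAZ2 (Ta10111), which acts in guard cells of Arabidopsis, was at 2396, 2066 and 2796 against 2272, 2842 and 3531, and JAZ10 (Ta05131), a repressor known for truncated splice forms, at 2564, 1522 and 1599 against 1886, 2683 and 3190. Both overlapped and neither passed the test (log2 fold changes of -0.24 and -0.46, limma adjusted p of 0.324 and 0.159). JAZ10 did pass without mature replicate 1, its highest mature sample (log2 fold change -0.70, adjusted p = 0.0288).

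**Figure D3:**
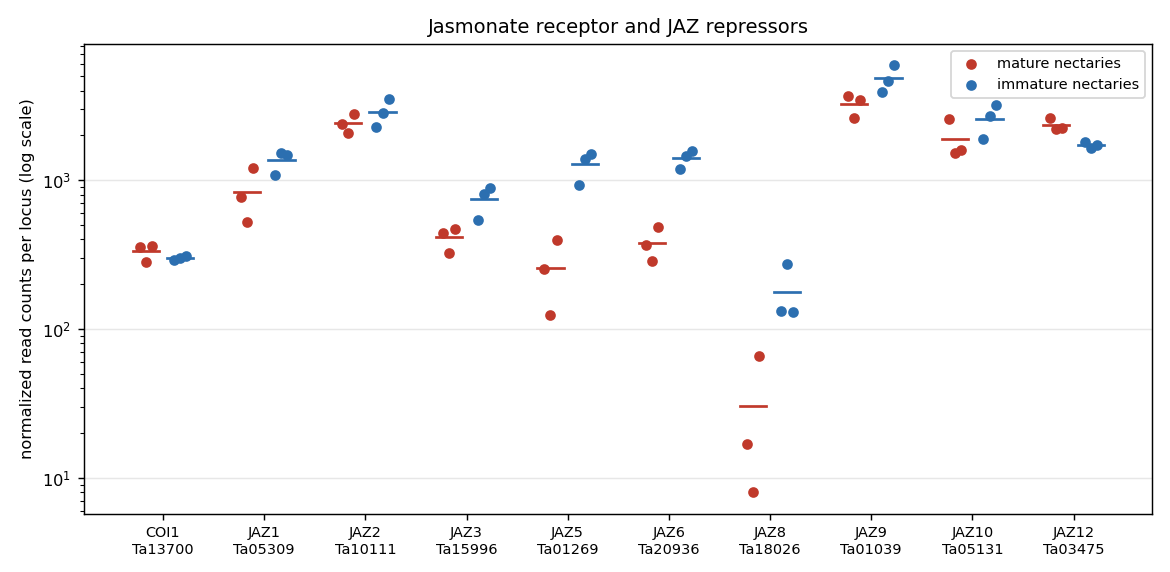
Normalized read counts (log scale) of COI1 and the 9 JAZ loci in the 3 mature (red) and 3 immature (blue) samples. Points are samples, bars are means over 3 samples. JAZ3, JAZ5, JAZ6, JAZ8 and JAZ9 lie lower in all mature samples, JAZ12 lies higher, and the stages overlap for COI1, JAZ1, JAZ2 and JAZ10.

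A further locus on the JAZ list had been left out by the description rule, because the table calls its match, AT3G22275, an unknown protein. It is named here after its values were seen. Ta04845 was nearly absent from mature nectaries, at 3, 4 and 8 normalized counts, against 638, 968 and 779 in immature nectaries. With a mean of 5.0 against 795.0 it was lower by 159-fold (log2 fold change -7.12, standard error 0.34, limma adjusted p = 4.01e-06), on approximately 3, 2 and 6 reads in the mature samples.

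The other 4 loci are a jasmonate-induced oxygenase and 3 TIFY proteins outside the JAZ group. JRG21 (Ta15261, AT3G55970), known in Arabidopsis as an oxygenase that hydroxylates and so inactivates jasmonic acid, was at 115, 18 and 20 in mature against 1064, 1025 and 1842 in immature nectaries. It was lower by 25.7-fold (log2 fold change -5.14, standard error 0.64, limma adjusted p = 0.00022), the largest fold of the 25 jasmonate genes, with mature replicate 1 above the other two. Without that sample it was lower by 69.0-fold. TIFY1 (Ta11636), a GATA-type zinc-finger protein known as ZIM, was at 552, 407 and 491 against 778, 728 and 811, lower by 1.60-fold without overlap (log2 fold change -0.68, standard error 0.15, limma adjusted p = 0.0042). PPD2 (Ta14653), a repressor of leaf meristemoid division, ranged over 147 to 185 in mature and 179 to 219 in immature nectaries, and TIFY8 (Ta02757) over 113 to 124 in mature and 99 to 125 in immature nectaries. Neither passed the test (log2 fold changes of -0.24 and 0.07, limma adjusted p of 0.206 and 0.724). Both relatives of TIFY1 on the same list, ZML1 (Ta21393) and ZML2 (Ta09848), lack the words of the rule in their descriptions. ZML2 was higher in mature nectaries, at 315, 204 and 313 against 136, 114 and 200 (log2 fold change 0.89, limma adjusted p = 0.0147, but 0.0523, 0.0544 and 0.0562 without immature replicate 1, immature replicate 2 or mature replicate 3). ZML1 was at 312, 358 and 357 against 449, 379 and 388, with means of 342.3 and 405.3, and did not pass the test (log2 fold change -0.24, limma adjusted p = 0.149). With its most abundant contig alone, ZML1 was lower (log2 fold change -0.99, limma adjusted p = 0.00053).

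The rest of the pathway was read from a list of 52 Arabidopsis genes, of which 33 had a locus in the table. One of them is JRG21, and the others gave 35 loci, since some genes had several. Among these 14 were higher in mature nectaries, 9 were lower and 12 did not pass the test, with a median log2 fold change of 0.10. These are 14 and 9 of 35, beside 28.4% higher and 35.9% lower of all loci, which is also the background of the small groups that follow. Symbols follow Arabidopsis usage where the table gives only a protein family.

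The desaturases that supply linolenic acid were lower in mature nectaries at all 3 loci. FAD3 (Ta21329), the desaturase of the endoplasmic reticulum, was at 175, 163 and 161 in mature against 1309, 1218 and 847 in immature nectaries, lower by 6.76-fold (log2 fold change -2.73, limma adjusted p = 1.11e-05). The plastid desaturases FAD7 and FAD8, named after their values were seen, had log2 fold changes of -1.27 and -4.11. FAD8 (Ta03411), the form of cold-grown plants, was at 14, 10 and 18 in mature against 233, 249 and 276 in immature nectaries. These desaturases also make linolenic acid of membranes at large.

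For peroxisomal import and beta-oxidation, all 4 loci were higher in mature nectaries, but the calls of 3 of them were lost when single samples were left out. KAT2 (Ta13172), the thiolase of the last step, was at 31174, 22905 and 30040 in mature against 9188, 9324 and 14519 in immature nectaries (2.55-fold, log2 fold change 1.37, limma adjusted p = 0.0020). The other 3, the importer PXA1, the oxidase ACX1 and the multifunctional protein MFP2, named after their values were seen, had log2 fold changes of 0.76, 0.75 and 0.82 (limma adjusted p of 0.0115, 0.0329 and 0.0251), and the stages of ACX1 overlapped. PXA1 did not pass without immature replicate 1 or 2 (adjusted p = 0.0587 and 0.0573) or with its most abundant contig alone (0.124). Without immature replicate 1 or 2 or mature replicate 1 or 3, neither ACX1 (adjusted p of 0.0849 to 0.115) nor MFP2 (0.0508 to 0.106) passed. All 4 serve the breakdown of fatty acids in general, and OPDA is only 1 of their substrates.

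The ligase that activates the OPDA-derived acid for beta-oxidation, OPCL1 (AT1G20510), had no locus of its own. Its 4 contigs with a locus lay in Ta10849, which takes its name from another AMP-dependent synthetase, and were looked at singly after their values were seen. The contig with the most counts was higher in mature nectaries, at 4008, 4073 and 3948 against 2420, 2483 and 2169 (log2 fold change 0.77, standard error 0.14, limma adjusted p = 0.0021 over 14936 contigs). Another contig, at 478, 525 and 571 against 826, 1144 and 770, was lower (log2 fold change -0.78, adjusted p = 0.0069), as was one at 74, 37 and 60 against 109, 240 and 147 (log2 fold change -1.50, adjusted p = 0.0081). The last, at 933, 317 and 723 against 635, 940 and 1929, overlapped (log2 fold change -0.81, adjusted p = 0.187). Contigs matched to this 1 gene thus went in both directions, and no direction is given for OPCL1.

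Genes that conjugate, break down or modify jasmonic acid moved both ways, with 2 of 6 loci higher, 3 lower and 1 that did not pass. JAR1 (Ta21483), which makes the active isoleucine conjugate, was at 390, 397 and 468 in mature against 123, 153 and 158 in immature nectaries (2.89-fold higher, log2 fold change 1.53, standard error 0.16, limma adjusted p = 7.89e-05). The oxygenase locus JOX2 (Ta03413), a relative of JRG21 that also hydroxylates jasmonic acid in Arabidopsis, had 428, 289 and 303 against 1232, 1567 and 1225 (3.95-fold lower, log2 fold change -1.99, limma adjusted p = 5.66e-05). A further relative that acts in the same way, JOX4 (Ta02200), named after its values were seen, was higher, at 1675, 1327 and 1534 against 789, 818 and 815 (1.87-fold, log2 fold change 0.90, limma adjusted p = 0.00065). The jasmonic acid oxygenases JRG21, JOX2 and JOX4 thus had no common direction. For none of them, nor for JAR1, did the stages overlap. Of all loci, 39.1% had every mature sample below the immature ones and 30.9% had every mature sample above.

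Around the receptor, ASK1 (Ta10232), the adaptor that ties F-box proteins such as COI1 into their ubiquitin ligase, was at 8259, 7708 and 7728 in mature against 3966, 4118 and 3979 in immature nectaries (log2 fold change 0.97, limma adjusted p = 0.00062). ASK1 serves many other F-box proteins. Of 3 loci of this complex 2 were higher and none was lower, and the call of RBX1, named after its values were seen, was lost under 7 of 18 alternatives. The transporter locus GTR1 (Ta20037), which carries glucosinolates and jasmonoyl-isoleucine, was at 5420, 4452 and 3575 against 1965, 2381 and 2593 (log2 fold change 0.94, limma adjusted p = 0.0035), and its other locus did not pass.

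Of the co-repressors that JAZ proteins recruit, 6 of 7 loci did not pass the test. NINJA (Ta12365), the adaptor between JAZ and TOPLESS, was at 785, 667 and 706 in mature against 691, 682 and 822 in immature nectaries (log2 fold change -0.02, limma adjusted p = 0.897). The other locus, TPR4 (Ta16725), a TOPLESS-related protein, was higher, at 1381, 1015 and 1858 against 756, 672 and 943 (log2 fold change 0.81, limma adjusted p = 0.0158), and did not pass without immature replicate 1 or 2 or mature replicate 3 (adjusted p of 0.0520 to 0.0585). Under other scalings TPR3 was higher and 1 TPL locus was lower.

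Among transcription factors, repressors and Mediator, 4 of 9 loci were higher and 2 were lower. The lower ones were JAM1 and JAM2, bHLH repressors that compete with MYC2 in Arabidopsis, and the higher ones were MYC3, JAM3, MYB57 and JAV1, listed here after their values were seen. The calls of JAM1, JAM2, JAM3 and MYC3 were lost when single samples were left out (adjusted p of at most 0.102). MYC2 (Ta18784), the main bHLH factor of the pathway, overlapped at 1436, 869 and 1035 in mature against 1053, 1587 and 1555 in immature nectaries (log2 fold change -0.34, limma adjusted p = 0.237), and passed as lower only with totals outside ribosomal RNA and organelles (-0.49, adjusted p = 0.0421). MYB57 (Ta09975), of the stamen and nectary group of MYB factors, was at 4258, 5606 and 5250 against 755, 797 and 868 (6.25-fold higher, log2 fold change 2.63, limma adjusted p = 7.12e-06). Its relative MYB21 (Ta06372) was at 5814, 5670 and 6008 against 3678, 5174 and 4512, without overlap but short of the threshold (log2 fold change 0.40, limma adjusted p = 0.0747). It passed under 2 other scalings of the samples. JAV1 (Ta04857), a VQ protein known in Arabidopsis as a repressor of defence and named after its values were seen, was at 236, 195 and 206 against 28, 28 and 12 (9.37-fold higher, log2 fold change 3.26, limma adjusted p = 9.45e-05).

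VSP2 (Ta07723), the 1 listed response gene with a locus and a classic target of jasmonate in Arabidopsis leaves and flowers, was at 172, 208 and 334 in mature against 2907, 2000 and 5149 in immature nectaries. It was lower by 14.1-fold (log2 fold change -3.76, standard error 0.36, limma adjusted p = 6.1e-05), and reads of its near-identical neighbour VSP1 could be among them.

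**Figure D4:**
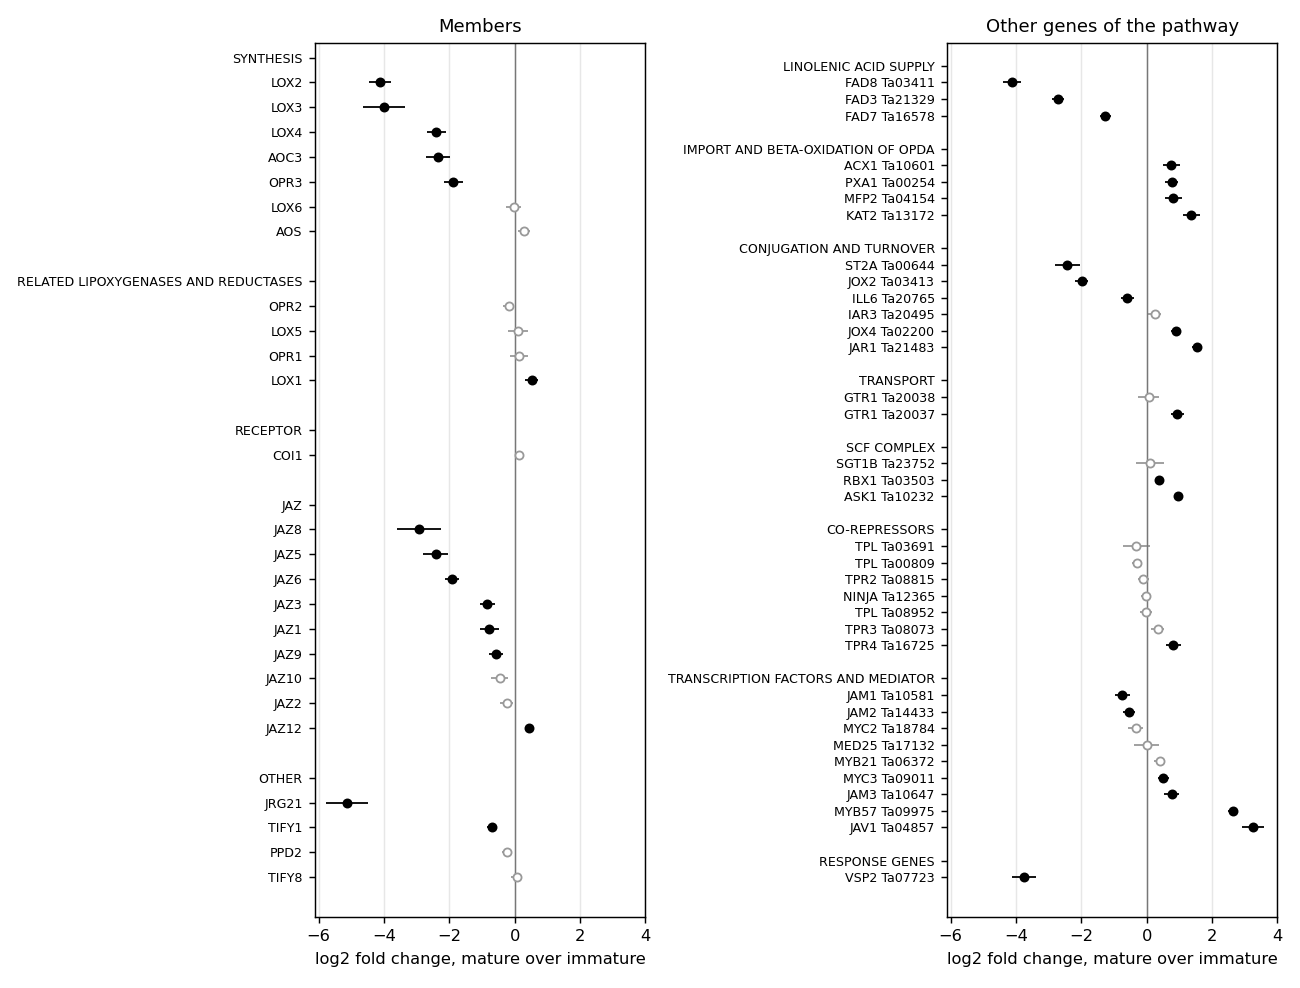
Log2 fold change, mature over immature, of the 25 jasmonate genes (left, as members) and of 35 loci for other genes of the pathway (right), grouped by role. Points are limma estimates over 3 samples of each stage, lines are ± 1 standard error, and filled points passed the test at an adjusted p under 0.05. Of the 7 synthesis loci, 5 lie far left of 0 while LOX6 and AOS lie near it, and the 4 import and beta-oxidation loci lie right of 0.

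Samples of a stage differed in the same direction for most jasmonate genes. Mature replicate 2 was the lowest of the mature samples for 23 of 25, or 92.0%, against 66.9% of all loci tested. Immature replicate 1 was the lowest of the immature samples for 16 of 25, or 64.0%, against 28.8% of all loci. The median deviation from the stage mean was 0.13, -0.34 and 0.16 on the log2 scale in mature and -0.28, 0.06 and 0.17 in immature samples. These deviations were not computed for all loci. Median-of-ratios factors, taken over all loci with counts in every sample, were 1.07, 0.85 and 0.98 in mature and 1.03, 1.01 and 1.07 in immature samples. Mature replicate 2 was thus low over loci at large too.

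The spread within a stage was wider, at the median, for these genes than for all loci. Their median standard deviation of log2 values was 0.33 in mature and 0.31 in immature samples over the 25 genes, against 0.25 and 0.16 over all loci. Mature replicate 2 also had the highest share of ribosomal RNA, 62.9%, and the lowest sum of pollen markers of the mature samples. Immature replicate 3 was the highest of the immature samples for 14 of 25 genes (51.3% of all loci), and immature replicate 2, where phloem markers were highest, for 7 of 25 (19.9% of all loci), LOX3, LOX4, AOC3 and JAZ8 among them. The part of these differences in the results was not tested. Without mature replicate 2 the test gave 11 lower and 2 higher jasmonate genes, and without immature replicate 2 it gave 11 lower and none higher.

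**Figure D5:**
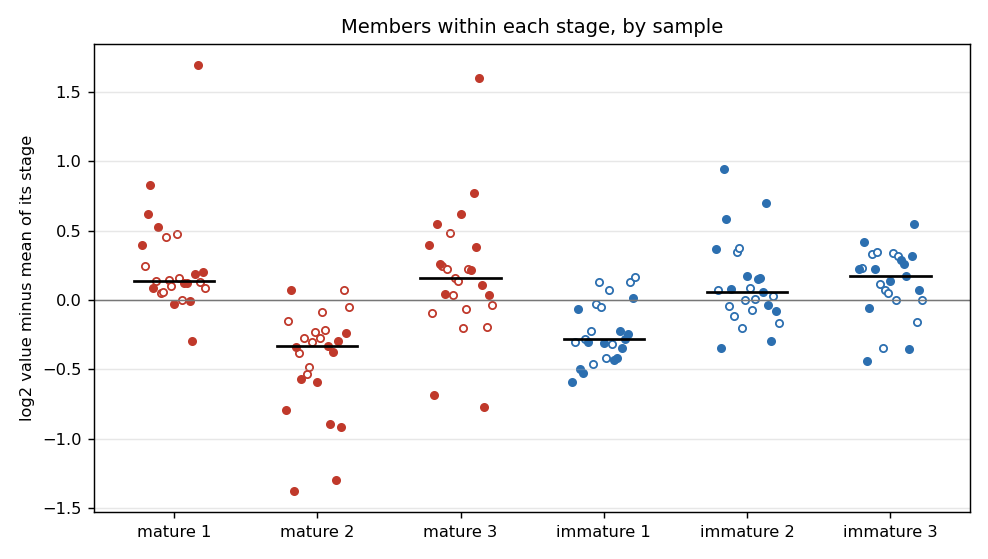
Log2 value minus the mean of its stage for each of the 25 jasmonate genes (points) in every sample. Filled points are the 13 genes that were lower in mature nectaries, open points the other 12, and black bars are medians over the 25 genes. Most points lie below 0 in mature replicate 2 (23 of 25) and in immature replicate 1 (20 of 25). The same counts were not made for all loci.

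Some listed genes of synthesis and signalling, DAD1, AOC2, AOC4, JAZ4, JAZ7, JAZ11 and PPD1, named no locus and were not analysed here. AOC1 named no locus either, and its contigs were summed in the AOC3 locus. The highest sample of every contig was at 101 normalized counts or more, so genes with fewer counts could not appear. Levels were not compared between genes, as contig lengths were not used here.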

How the data were processed

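Contigs were made by the authors with Trinity, separately for the 2 stages, and joined to an existing pennycress assembly. Reads were assigned to contigs by blastn, and the counts were scaled by the upper quartile. The deposited scores are these scaled read counts, rounded by the authors, so no count model was applied. The deposited ratio of stage means and the deposited p-value were made by the authors per contig and were not used here.

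Values of all contigs of a locus were added (Python 3.11.15, pandas 2.3.3, numpy 2.4.6), and each locus took the Arabidopsis match of its most abundant contig. Loci were kept where either stage averaged 100 or more, which left 11780. The log2 of the sum plus 1 was tested with limma 3.58.1 (R 4.3.3) with a variance trend, without a block for the replicate number, and with Benjamini-Hochberg adjustment over all 11780. The procedure was run on simulated counts with the same relative spread at every locus and few changed loci. These data differ in both, so the simulation does not bear on the calls above. Adding 1 draws the log2 fold changes of low loci towards 0. Printed folds are ratios of mean normalized counts, and can be smaller than the log2 fold change where samples of a stage differ. Reads that match several close copies could have been split or shared between them by the counting.

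The genes, lists and tests were chosen with earlier results of these data known. Every jasmonate gene is named. The other pathway genes named are the one with the smallest adjusted p of each sub-list and MYC2, JAR1, MYB21 and NINJA, and exceptions are marked in the text. Alternatives were leaving out each sample, 3 rescalings, stricter thresholds, no filter on low values or one at 500, other pseudocounts (0.5 and 10), the most abundant or the annotating contigs only, robust moderation, no trend, and a replicate block. The fit of single contigs was added after the data were seen. No genome was used here. Figures were drawn with matplotlib 3.10.9.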

Additional observations from a re-analysis of the deposited data

Results flagged for a closer look

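Contigs without a pennycress locus stayed outside the sums, and 2 of them were matched to jasmonate genes on the lists. The contig matched to OPCL1 had a mean of 341.5 normalized counts over the 6 samples, with 503, 405 and 419 in mature against 233, 227 and 262 in immature nectaries (log2 fold change 0.87, standard error 0.15, limma adjusted p = 0.0015 over 14936 contigs). The contig matched to AT3G22275, called an unknown protein in the table, had a mean of 73.7 normalized counts over the 6 samples. It was listed at 0 in all 3 mature samples, against 109, 178 and 155 in immature nectaries.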

How the results depend on the processing

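None of the results for single loci, jasmonate genes and other pathway genes alike, changed direction in a call under the alternatives run other than single contigs (0 reversed of 1239 values, with 1131 on the same side of the threshold, 95 weaker and 13 stronger). Robust moderation, no trend, other filters, the replicate block and stricter thresholds leave the log2 fold change as it is, so they could not reverse it. A change of sign without a call was not counted as reversed, such as that of LOX6 from -0.03 to 0.07 with median-of-ratios factors. Of the 25 jasmonate genes, 18 had the same call under every refit that included them (18 refits, or 17 for the 7 genes that a filter at 500 removed), and LOX1, JAZ1, JAZ9, JAZ12, JAZ10, AOS and OPR2 did not. The count of lower jasmonate genes, 13, ran between 9 (with over 2-fold) and 15, and between 11 and 13 with 1 sample left out. The count of higher ones, 2, was 1 with the most abundant contig, without the trend and with totals outside ribosomal RNA and organelles, 0 at an adjusted p under 0.01 and with over 2-fold, and 0 to 2 with 1 sample left out. The median of -0.57 ran between -0.73, over the 18 genes left by a filter at 500, and -0.41. Of the other pathway genes, the 14 higher were 7 at an adjusted p under 0.01, 4 with over 2-fold, and 7 to 14 with 1 sample left out (7 without immature replicate 1 or 2, 9 without mature replicate 3). The 9 lower were 6 to 9 with 1 sample left out. With a filter at 500, which left only 23 of the 35 loci, 5 were lower. Replicates of the same number deviated together little (correlations of -0.07, 0.01 and 0.20), and a replicate block called 7774 loci in place of 7573, with 13 lower and 2 higher jasmonate genes as before. Low mature values, such as those of LOX3 and JAZ8, rest on few reads, which limits the precision of their folds.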
